A study of Mus musculus with 10 samples.

Results

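Fatty acids enter metabolism as thioesters of coenzyme A (acyl-CoAs). Described here are 10 mouse genes that cleave, carry or consume these thioesters: 5 acyl-CoA thioesterases (Acot1 to Acot5), 3 proteins with an acyl-CoA binding domain (Dbi, Acbd3 and Acbd6), the 2-hydroxyacyl-CoA lyase Hacl1 and the acyltransferase Lpgat1. They are 10 of the 23282 entries of each deposited table and were taken by symbol. They were chosen with the difference between the genotypes in these same libraries known. The differences, standard errors (SE) and limma adjusted p-values given for them below are therefore a description of the values that chose them, not a test.

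They were measured in 10 libraries of transcript 3′ ends, made from skin of mice on the C57BL/6 background, aged 5 months. Wild type skin (WT) gave 5 libraries, and the other 5 came from a model in which STAT3 was ablated only in keratinocytes (STAT3cKO). STAT3 carries signals from cytokine receptors to the nucleus, and the series concerns its part in keeping the skin barrier intact. The sources used here do not give the driver of the ablation, the deleted exons, sex, litter or hair cycle stage. Whether the libraries of a group come from separate animals is not stated either, so errors and p-values measure the spread between libraries, which may be technical. Values are log2 of scaled reads plus 1, as deposited, and all differences are STAT3cKO minus WT.

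Thioesterases release the free fatty acid from its coenzyme A and so set how much activated fatty acid a compartment holds. Acyl-CoA binding proteins carry the activated form through the cytosol and shield it. In skin these steps lie on the way to ceramides, wax esters, stored triglycerides and oxidation, in keratinocytes, sebaceous glands and the fat layer of the dermis.

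Before the members, 4 facts about the libraries bear on the values. Estimated depth was 7150000 to 18400000 reads, with deeper and shallower libraries in both groups. Moderately expressed genes went unread most often in STAT3cKO 2 and WT 3: of genes with a median of 7 to 8 in the other 9 libraries, 30.1% had no read in STAT3cKO 2 and 11.7% had none in WT 3, against 0.265% in WT 4. STAT3cKO 2 also stood apart by sex-linked genes, with 1119 reads of the Y-linked Ddx3y (10.62) and 0 of the X-inactivation RNA Xist (0.06). Among the remaining 9, Xist ran from 8.65 to 11.01 (372 to 3102 reads) and Ddx3y had 1 read at most. By these genes STAT3cKO 2 was male and the rest were female, so the STAT3cKO group mixed the sexes. STAT3cKO 2 therefore came from another animal than STAT3cKO 1, 3, 4 and 5. Without STAT3cKO 2 the differences were −2.21 for Dbi, 2.24 for Acbd6, 2.76 for Hacl1, −2.32 for Lpgat1 and 7.37 for Acot5. The limma adjusted p was then under 0.05 for each of these but Acot5 (0.0605). The part of sex in the differences was not tested. The 10 basal keratinocyte markers looked at had reads in every library, but genes of the growing hair shaft differed widely, with a log2 summed level of 18.46 in WT 4 and 7.71 to 11.62 in the other WT libraries, and of 18.41, 15.55 and 14.92 in STAT3cKO 3, 1 and 5 against 4.33 and 1.63 in STAT3cKO 4 and 2. Stat3 itself averaged 9.72 ± 0.56 among WT libraries (SD, n = 5) and 10.13 ± 0.48 among STAT3cKO libraries (n = 5). This checks nothing about the ablation, because skin holds many cells besides keratinocytes and a transcript without its inner exons still yields 3′ reads.

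The thioesterases are related in sequence and lie side by side. In GENCODE on mm10 they lie on the plus strand of chromosome 12 in the order Acot2 (83987861 to 83993873), Acot1 (84009490 to 84018371), Acot4 (84038379 to 84048601), Acot3 (84052144 to 84060402) and Acot5 (84069325 to 84076020), followed by Acot6. The gaps between neighbours were 3.5 to 24.6 kb. Their coding sequences were 75.9 to 95.2% identical over the aligned bases, with the highest identity between Acot1 and Acot2. What separates them for the cell is where the protein goes: Acot1 is cytosolic, Acot2 mitochondrial, and Acot3, Acot4 and Acot5 peroxisomal, with a short targeting signal at the very end of the protein. The last 30 coding bases are shown because they hold that signal, with the 3 codons before the stop codon in capitals.
Acot1: gagtgtttgcatgtgtctCCTAAAATAtaa
Acot2: ttccacaaacagttgggtAGCAAGAGTtag
Acot3: aaaaagaagacaatcccaGCAAAACTGtga
Acot4: acccacagcagagcctccTGTAGACTGtag
Acot5: gacaagaggccaagcccaGCAAAACTAtga

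Because the libraries read 3′ ends, the ends of the transcripts decide whether these genes can be told apart. In the last 500 bases of the Acot1 transcript, 0 of 451 windows of 50 bases occurred in a transcript of another gene, and in Acot2 2 of 451 did. The Acot2 windows occurred in 4 other genes, of which only Chst15, Gm13016 and Igsf9 were recorded by name. For Acot5 58 of 451 windows (12.9%) also occurred in Acot3, which had almost no reads, and 6 of them in Acot1. Windows shared with other genes made up 4.21% of the end of Acot4 and 3.17% of that of Dbi, and 0% of those of Acot3, Acbd3, Acbd6, Hacl1 and Lpgat1. Read length and the treatment of reads with several matches are unknown here, so a small exchange of reads among Acot genes remains uncertain. Exons of Acot3, Acot4 and Hacl1 each overlap those of 2 other annotated genes, 1 on the opposite strand and 1 on the same strand. Overlapping reads from opposite strands cannot be told apart if strand was not used, and those from the same strand cannot be told apart by strand at all.

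Of the 10 members, 9 passed the filter on low values and Acot3 did not. In the fit over all tested genes 3 were called higher (Acot5, Acbd6 and Hacl1), 2 were called lower (Dbi and Lpgat1) and 4 were not called (Acot1, Acot2, Acot4 and Acbd3). Over all 11536 tested genes 0.988% were called, 0.529% higher and 0.459% lower. The groups did not overlap in 6 members, the 5 called and Acot1, and in 3.42% of all tested genes. Since the members were picked from this contrast, nothing is read from their counts. None of the 5 calls held without limma's trend and robust settings (limma adjusted p of 0.0505 to 0.136) or in the 6 shallower libraries alone (0.0681 to 0.572).

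**Figure D1:**
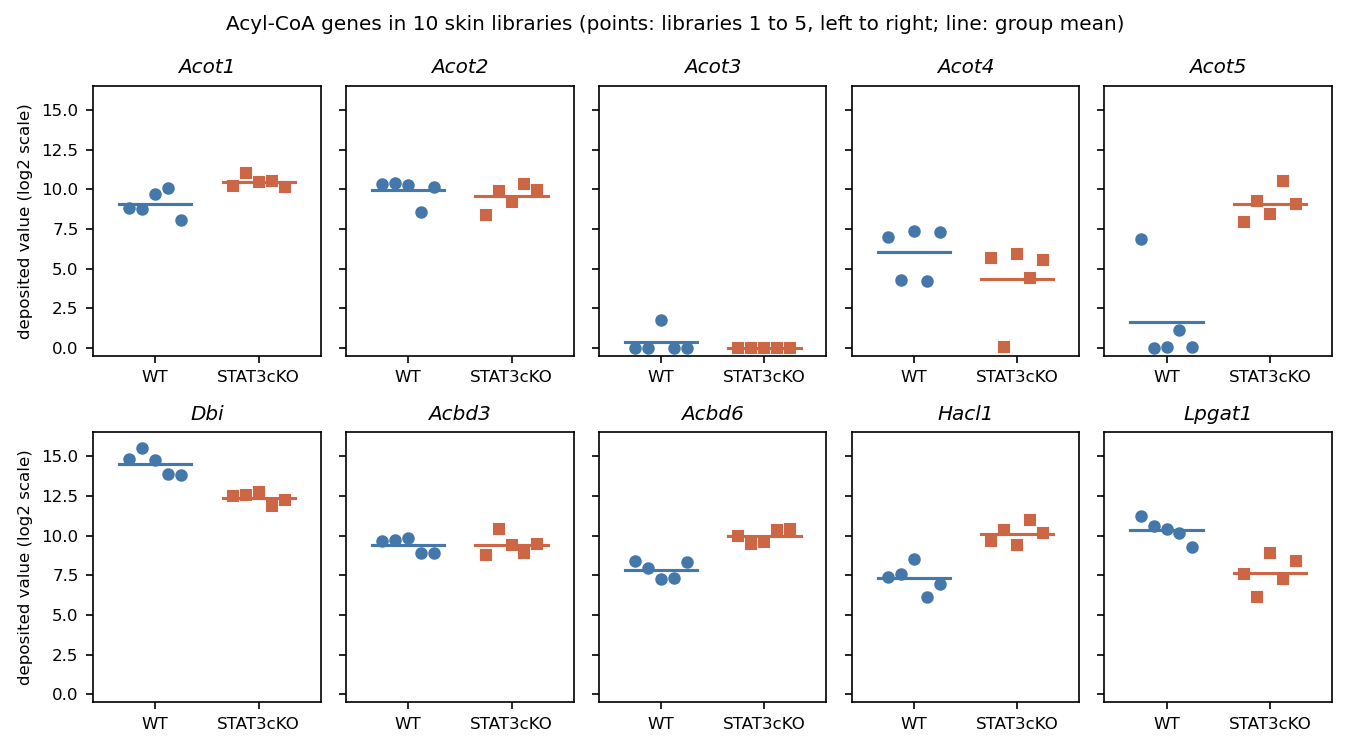
Deposited log2-scale value (y axis) of each of the 10 genes in 5 WT (circles) and 5 STAT3cKO (squares) libraries, drawn in the order of replicate 1 to 5, with a line at the group mean. Acot5 is at 7.94 or more in the STAT3cKO libraries and at 6.84 or less in WT, Dbi and Lpgat1 are lower in each STAT3cKO library than in any WT library, and Acot3 is near 0.

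Acot5, a peroxisomal thioesterase, had the largest difference of the 10. Its values were 6.84, 0, 0.06, 1.15 and 0.08 in WT 1 to 5. In STAT3cKO 1 to 5 they were 7.94, 9.24, 8.45, 10.5 and 9.07. In reads this was about 170 in WT 1, 1 in WT 4 and 0 in the other 3 WT libraries, against 199 to 1962 in STAT3cKO. The groups did not overlap, and WT 1 lay 1.11 below the lowest STAT3cKO library. The difference was 7.42 (SE 1.64, 95% interval 3.97 to 10.86, limma adjusted p = 0.0341). Its size depends on how libraries without a read are treated, and with a pseudocount of 16 in place of 1 it was 4.46. In the 10 fits that each left out 1 library the call held without WT 1 (8.72, limma adjusted p = 0.0122) and without WT 4 (7.30, limma adjusted p = 0.0399). It was lost in the other 8, with a limma adjusted p of 0.0605 without STAT3cKO 2 up to 0.0992 without STAT3cKO 4. In WT 2 few genes of moderate level went unread (0.908% of those with a median of 7 to 8 elsewhere), while in WT 3 and WT 5 11.7% and 8.77% of such genes had no read.

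Acot1, the cytosolic enzyme, differed in the same direction by less. It was at 8.84, 8.77, 9.68, 10.08 and 8.09 in WT 1 to 5 and at 10.2, 10.99, 10.48, 10.53 and 10.14 in STAT3cKO 1 to 5. The groups were apart by only 0.06, with WT 4 the highest WT library. The difference was 1.38 (SE 0.39, 95% interval 0.55 to 2.20) and was not called (limma adjusted p = 0.112). Without WT 4 it was 1.62 and passed (limma adjusted p = 0.0372).

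Acot2, the mitochondrial enzyme and nearest relative of Acot1, showed no such separation. Its WT values were 10.35, 10.4, 10.28, 8.54 and 10.11 and its STAT3cKO values 8.4, 9.89, 9.18, 10.34 and 9.93. The groups overlapped, and the difference was −0.39 (SE 0.44, limma adjusted p = 0.765), with a 95% interval of −1.32 to 0.54 that includes changes in either direction. The low libraries were WT 4, STAT3cKO 1 and STAT3cKO 3, which are also the 3 libraries with the highest level of the hair shaft genes, 18.46, 15.55 and 18.41. Over the 10 libraries Pearson's r between Acot2 and the mean of the 7 tested hair genes was −0.80, and it was −0.80 again for deviations from the group means. The summed levels cover all 15 genes of the hair list. Acot2 also had an r of −0.76 with the mean of 4 melanocyte genes (−0.74 over deviations). With the mean of 18 adipocyte genes it was 0.58 (0.64 over deviations). These values describe libraries that share depth and tissue make-up, and the part of hair growth or cell types in the level of Acot2 was not tested.

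The 2 other thioesterases were low. Acot4, peroxisomal like Acot5, was at 7.01, 4.31, 7.36, 4.24 and 7.29 in WT and at 5.68, 0.06, 5.89, 4.43 and 5.54 in STAT3cKO. It rested on 15 to 192 reads per WT library and on 0 to 80 per STAT3cKO library, the library without a read being STAT3cKO 2. The difference of −1.72 (SE 1.63, 95% interval −5.14 to 1.70, limma adjusted p = 0.718) was −0.65 without that library. Acot3 had 2 reads in WT 3, a value of 1.79, and no read in the other 9 libraries, so no difference was detectable at this depth. Acot6, the last gene of the cluster, had values of 5.15 and 5.99 in WT 4 and WT 5 and no read elsewhere.

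**Figure D2:**
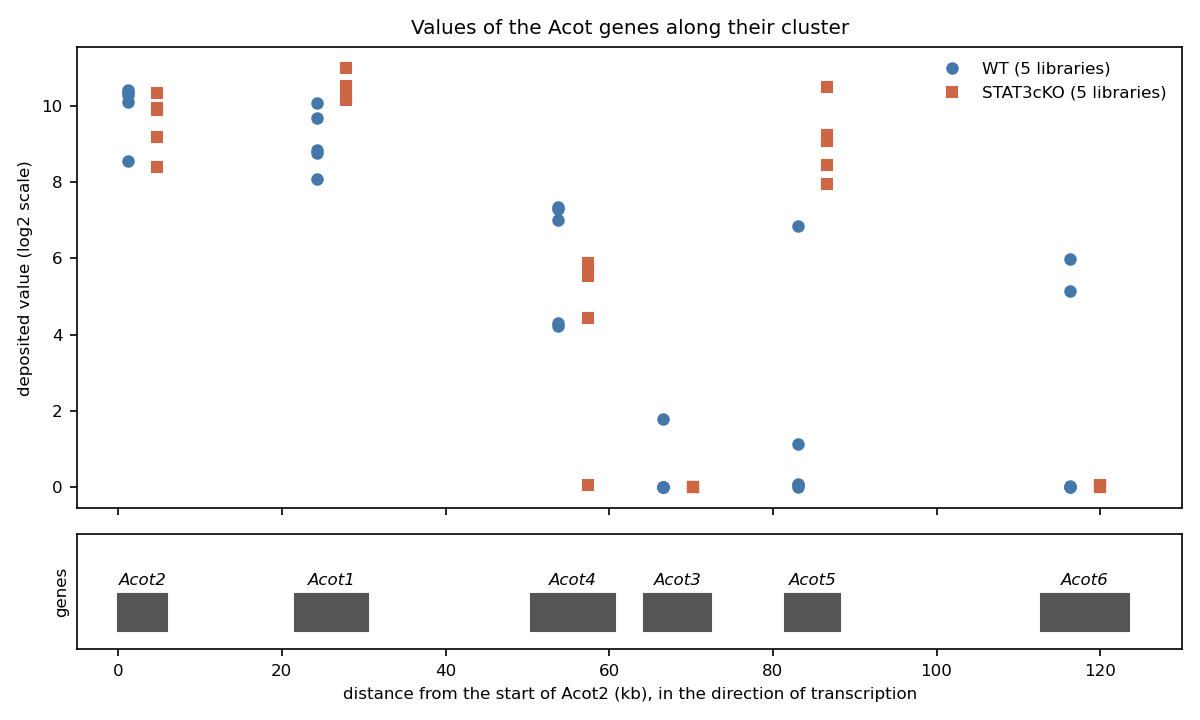
Deposited log2-scale values (upper panel, y axis) of the 6 Acot genes at their place in the cluster, with distance from the start of Acot2 in kb on the x axis and the genes as boxes in the lower panel, for 5 WT (circles) and 5 STAT3cKO (squares) libraries. Acot5 separates the groups by 1.11, Acot1 by 0.06, and the neighbours between them, Acot4 and Acot3, do not separate them.

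The make-up of the family's signal can be compared within a library. On the linear scale Acot5 gave 0 to 5.66% of the summed Acot1 to Acot5 level in WT and 13.5 to 34.1% in STAT3cKO. Acot2 gave 25.3 to 74.9% in WT and 18.7 to 36.3% in STAT3cKO. In WT 1, 2, 3 and 5 Acot2 was above Acot1, by 0.61 to 2.02 on the log2 scale, and in WT 4 and all 5 STAT3cKO libraries Acot1 was above Acot2, by 0.19 to 1.79. The summed level itself overlapped between the groups, with 10.53 to 11.12 in WT and 10.82 to 12.05 in STAT3cKO. These are levels of 3′ reads, which do not scale with transcript length, and say nothing of enzyme activity.

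**Figure D3:**
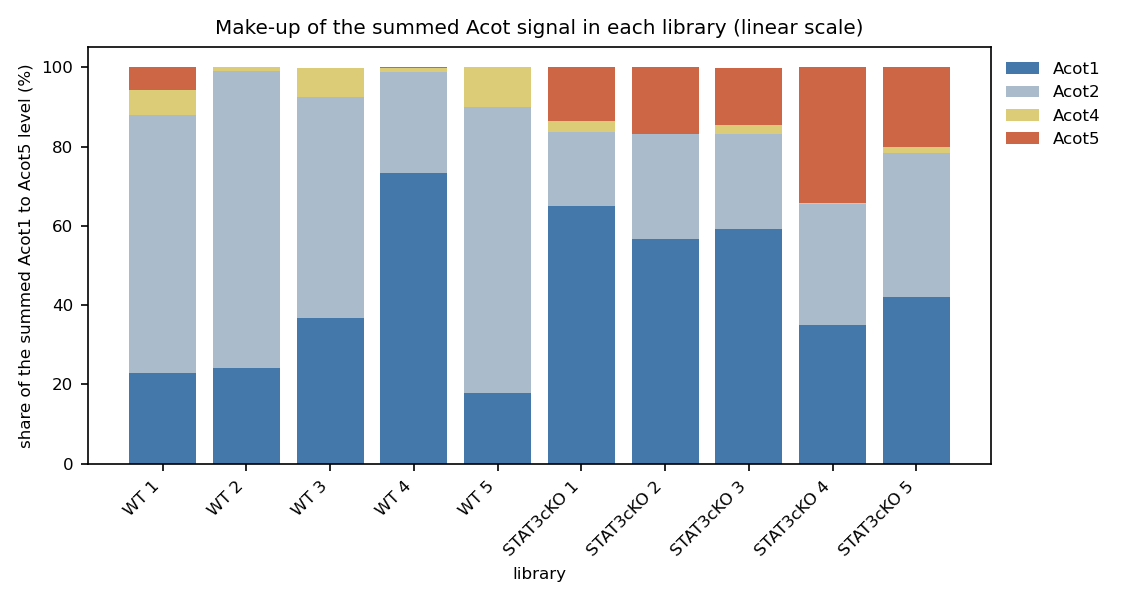
Share of each Acot gene in the summed Acot1 to Acot5 level (y axis, percent of the linear sum) in each of the 10 libraries (x axis). Acot5 takes up to 5.66% in WT libraries and at least 13.5% in STAT3cKO libraries, and WT 4 differs from the other WT libraries by its large Acot1 share of 73.4%.

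Acot genes are classic targets of the PPAR receptors, which bind paired AGGTCA half-sites, so the promoters in RefSeq were searched on both strands. Each window ran from 250 bases before to 50 after a start listed there, which can differ from the start in GENCODE. The Hacl1 window (31640916 to 31641215) and the second of Lpgat1 (191718145 to 191718444) lay inside the gene as GENCODE places it. A promoter was matched for 9 of the 10 members, the exception being Acbd3. A direct repeat, AGGTCA followed by AGGTCA with any base between, occurred in 0 of the 9 and in 0.0396% of all 32851 promoters. The half-site AGGTCA occurred in 3 of the 9, Acot3, Acot4 and Acot5, and in 16.3% of all promoters. The STAT-type motif TTCNNNGAA occurred in 0 of the 9 and in 8.3% of all. Acot5 had 2 half-sites, beginning 224 bases and 1 base before the start. Its promoter is shown because Acot5 had the largest difference, from chr12:84069074-84069328 of GRCm38.p6, plus strand, with both half-sites in capitals (the first on the opposite strand).
Acot5 promoter: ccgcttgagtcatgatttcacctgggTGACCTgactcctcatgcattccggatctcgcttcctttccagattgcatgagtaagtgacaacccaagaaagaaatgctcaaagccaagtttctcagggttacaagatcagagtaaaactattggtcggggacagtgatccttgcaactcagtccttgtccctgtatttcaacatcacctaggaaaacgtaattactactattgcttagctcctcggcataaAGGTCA
A match is a run of letters and not evidence of binding, and the absence of a match concerns this window and these letters.

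Among the binding proteins Dbi was lower and Acbd6 higher in STAT3cKO skin, while Acbd3 showed no separation. Dbi, also called acyl-CoA binding protein, is a small and abundant cytosolic carrier of long-chain acyl-CoAs (chromosome 1, 120113280 to 120121078, minus strand). It was at 14.8, 15.5, 14.74, 13.86 and 13.8 in WT 1 to 5 and at 12.49, 12.54, 12.74, 11.84 and 12.24 in STAT3cKO 1 to 5. As a share of all reads it was 0.131 to 0.407% in WT and 0.0349 to 0.0638% in STAT3cKO. The groups were apart by 1.06. Dbi fell by 2.17 (SE 0.31, 95% interval −2.82 to −1.52, limma adjusted p = 8.93e-04), a 4.5-fold difference, and the call held with any 1 library left out (−2.36 to −1.93). In the 4 deeper libraries alone the change was −3.11 (limma adjusted p = 0.00208), and in the 6 shallower ones it was −1.54 and not called (limma adjusted p = 0.0681).

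Acbd6, an ankyrin-repeat protein with an acyl-CoA binding domain (chromosome 1, 155558120 to 155691330, plus strand), moved the other way. It was at 8.38, 7.95, 7.26, 7.32 and 8.36 in WT and at 9.98, 9.45, 9.6, 10.36 and 10.45 in STAT3cKO, 1.07 apart at the nearest. Acbd6 rose by 2.11 (SE 0.42, 95% interval 1.22 to 3.00, limma adjusted p = 0.0202), a 4.32-fold difference. The call was lost without STAT3cKO 1 (limma adjusted p = 0.0631), without STAT3cKO 4 (limma adjusted p = 0.0609) or without STAT3cKO 5 (limma adjusted p = 0.0703), with changes of 1.99 to 2.11. Acbd3, a Golgi protein of the same domain family (chromosome 1, 180726043 to 180754204, plus strand), was at 8.89 to 9.83 in WT with a median of 9.66 and at 8.78 to 10.44 in STAT3cKO with a median of 9.41. Its difference was −0.01 (SE 0.40, 95% interval −0.86 to 0.83, limma adjusted p = 0.991).

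Hacl1 cleaves 2-hydroxyacyl-CoAs in peroxisomes, in the alpha-oxidation of phytanic acid and in the breakdown of 2-hydroxy fatty acids (chromosome 14, 31598730 to 31641286, minus strand). It was at 7.4, 7.61, 8.51, 6.11 and 6.93 in WT 1 to 5 and at 9.68, 10.33, 9.42, 10.97 and 10.2 in STAT3cKO 1 to 5. The groups were 0.91 apart. Hacl1 rose by 2.81 (SE 0.51, 95% interval 1.74 to 3.88, limma adjusted p = 0.00869), a 7.01-fold difference, and the call held with any 1 library left out, with a highest limma adjusted p of 0.0468 without STAT3cKO 4. It was lost without limma's trend and robust settings (limma adjusted p = 0.0697) and in the 6 shallower libraries (2.63, limma adjusted p = 0.433). Its exons overlap those of Gm49387 on the same strand and those of Btd, the gene of biotinidase, on the opposite strand. Btd was at 6.40 to 8.39 in WT and 3.44 to 8.47 in STAT3cKO, with a difference of −0.88 (SE 1.09, limma adjusted p = 0.789).

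Lpgat1 is an acyltransferase of the endoplasmic reticulum that takes the acyl group of an acyl-CoA and joins it to a lysophospholipid (chromosome 1, 191717834 to 191784255, plus strand). It was at 11.26, 10.58, 10.41, 10.16 and 9.32 in WT and at 7.57, 6.12, 8.9, 7.26 and 8.38 in STAT3cKO, 0.42 apart at the nearest. Lpgat1 fell by 2.70 (SE 0.53, 95% interval −3.80 to −1.59, limma adjusted p = 0.0169), a 6.5-fold difference. The call was lost without WT 1 (−2.47, limma adjusted p = 0.0754) or without WT 2 (−2.64, limma adjusted p = 0.0541). With STAT3cKO 2 and WT 3 both left out, the calls of Dbi (−2.16), Acbd6 (2.09), Hacl1 (3.06) and Lpgat1 (−2.30) held and that of Acot5 (6.97, limma adjusted p = 0.0996) was lost.

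**Figure D4:**
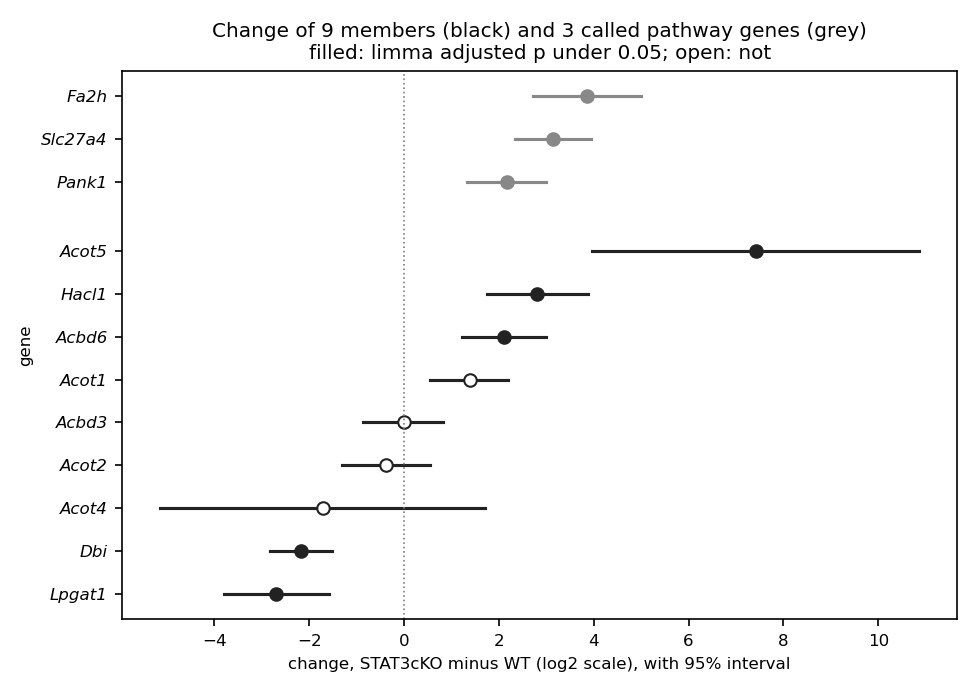
Change from WT to STAT3cKO on the log2 scale (x axis) with its 95% interval for the 9 members that passed the filter (black) and the 3 called genes of the wider acyl-CoA pathways (grey); filled points had a limma adjusted p under 0.05. Acot5 has the widest interval of the called members, 3.97 to 10.86, and the interval of Dbi runs from −2.82 to −1.52.

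Whole skin mixes cell types, and fewer cells of a type cannot be told apart from less RNA per cell. Lists of fat, muscle, macrophage, fibroblast and hepatocyte markers had negative median changes. Of 5 hepatocyte genes 0 were called by limma (0 at an unadjusted p under 0.05), and the median was −1.57. Their log2 summed level was 9.27 to 12.94 in WT and ran from 2.77 in STAT3cKO 4 to 13.46 in STAT3cKO 2. Of 18 adipocyte genes 1 fell by limma's adjusted p (Car3), and 15 had an unadjusted p under 0.05, all with a negative change. That is 83.3% of the list, against 10.9% of all tested genes. A change below 0 was seen in 17 of the 18, and the median change was −2.24, against −0.16 over all tested genes. Their log2 summed level was 17.08 to 19.51 in WT and 15.71 to 18.13 in STAT3cKO, so that the groups overlapped. The mean of their log2 values was 10.66 to 12.76 in WT and 8.12 to 10.52 in STAT3cKO, without overlap, and no adipocyte marker lacked reads in all libraries. Pearson's r with the mean of this list over the 10 libraries was 0.84 for Dbi and 0.62 for Lpgat1, and over deviations from the group means 0.44 and −0.25. Of 17 skeletal muscle genes 0 were called by limma (4 at an unadjusted p under 0.05), 16 had a change below 0, and the median was −1.75. Of 13 macrophage and monocyte genes 0 were called by limma (2 unadjusted), 12 had a change below 0, and the median was −0.62. Of 12 fibroblast genes 1 fell (Dpt), 2 had an unadjusted p under 0.05, 8 had a change below 0, and the median was −0.76. With the fibroblast list mean r was 0.66 for Lpgat1 and 0.45 for Dbi (0.45 and −0.13 over deviations). With the suprabasal keratinocyte list mean it was −0.80 for Dbi and −0.58 for Lpgat1 (−0.22 and 0.46 over deviations). For the macrophage and monocyte list mean it was 0.47 for Dbi and 0.53 for Lpgat1 (0.2 and 0.35 over deviations). The part of any of these lists in the falls of Dbi and Lpgat1 was not tested.

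**Figure D5:**
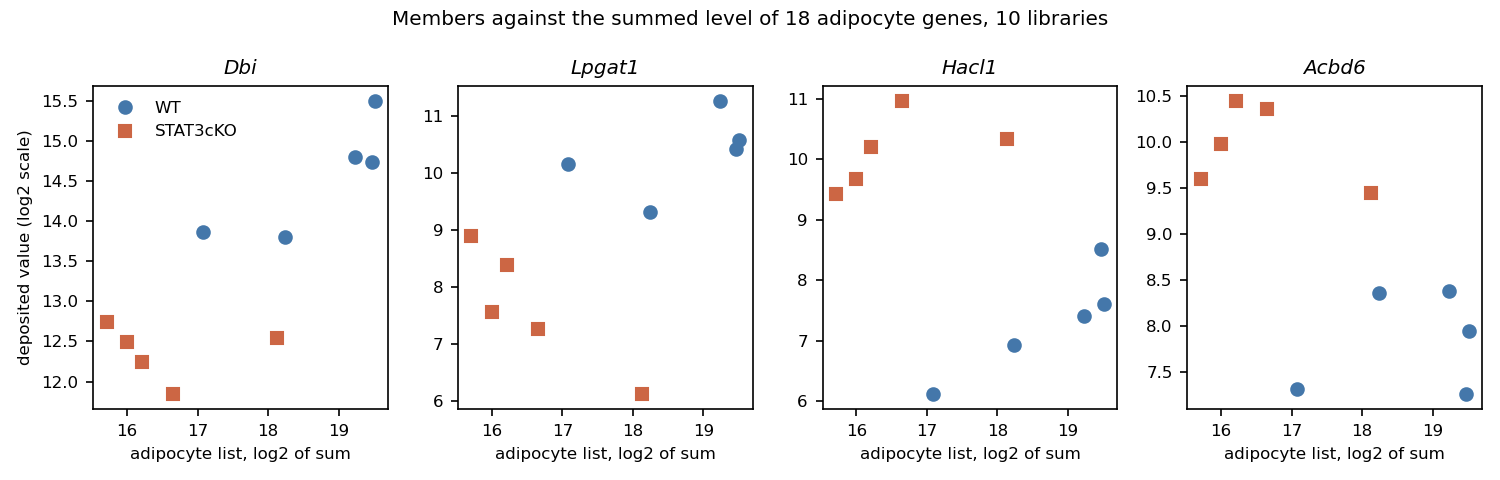
Deposited log2-scale value (y axis) of Dbi, Lpgat1, Hacl1 and Acbd6 against the log2 summed level of 18 adipocyte genes (x axis) in 5 WT (circles) and 5 STAT3cKO (squares) libraries. On the x axis the groups overlap, with STAT3cKO 2 at 18.13 and WT 4 at 17.08, whereas by the mean of the same genes STAT3cKO 2 (10.52) is below WT 4 (10.66).

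Among keratinocyte and sebaceous markers 1 gene was called. All 14 suprabasal keratinocyte genes tested had a positive change with a median of 1.18, and 0 were called by limma (9 at an unadjusted p under 0.05). The log2 summed level of that list was 15.91 to 17.51 in WT and 17.41 to 18.19 in STAT3cKO. The 10 basal keratinocyte genes all had a positive change with a median of 0.36, and 0 were called by limma (2 unadjusted). Of 13 sebaceous gland genes 1 rose (Soat1), and the median change was 0.04. At limma's unadjusted p under 0.05, 2 of them had a positive and 2 a negative change. The summed level of the sebaceous list was 14.79 to 17.27 in WT, lowest in WT 4, and 16.44 to 17.58 in STAT3cKO. Of 4 brown fat genes 1 rose (Elovl3, which sebaceous glands also express), and the median change was −0.36. Pearson's r with the suprabasal list mean over the 10 libraries was 0.87 for Acbd6, 0.77 for Hacl1 and 0.71 for Acot5. Over deviations from the group means it was 0.49, 0.09 and −0.1. With the basal list mean r was 0.43, 0.29 and 0.34 in the same order (−0.06, −0.39 and −0.23 over deviations). With the sebaceous list mean it was −0.21, −0.21 and −0.37 (0.67, 0.57 and 0.12 over deviations). For the fibroblast list mean it was −0.24, −0.52 and −0.41 (0.79, −0.08 and 0.19 over deviations). For the macrophage and monocyte list mean it was −0.16, −0.26 and −0.23 (0.69, 0.33 and 0.37). For the adipocyte list mean it was −0.73, −0.53 and −0.62 (0.06, 0.79 and 0.36). Over deviations the highest r of Acbd6 among these lists was with fibroblast genes, and that of Hacl1 with adipocyte genes. The part of these lists in the rises of Acot5, Acbd6 and Hacl1 was not tested.

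Fa2h, Slc27a4 and Pank1 rose among the genes of neighbouring steps in acyl-CoA metabolism. Of 108 tested genes from 8 such lists, 3 rose, 0 fell and 105 were not called, a called share of 2.78% against 0.988% of all tested genes. The lists were chosen with results of these data known, so nothing is read from that share. By limma's unadjusted p under 0.05 there were 13 with a positive and 12 with a negative change, 23.1% of the 108 against 10.9% of all tested genes. The median change was −0.16, the same as over all tested genes. The 3 that rose were Fa2h, the fatty acid 2-hydroxylase, by 3.85 (SE 0.53, limma adjusted p = 0.00260), Slc27a4, a fatty acid transporter with acyl-CoA synthetase activity, by 3.14 (SE 0.38, limma adjusted p = 2.76e-04), and Pank1, the pantothenate kinase that opens coenzyme A synthesis, by 2.16 (SE 0.40, limma adjusted p = 0.0106). Fa2h makes the 2-hydroxy fatty acids whose CoA esters Hacl1 cleaves. Fa2h was at 10.69, 10.84, 10.68, 8.15 and 11.2 in WT and at 14.06, 14.42, 13.34, 15.11 and 13.91 in STAT3cKO, and like Hacl1 it was lowest in WT 4 and highest in STAT3cKO 4. Pank1 was at 8.36, 8.22, 9.61, 8.31 and 8.79 in WT and at 11.31, 10.36, 9.9, 11.51 and 11.01 in STAT3cKO, with groups 0.29 apart. These 3 calls held with any 1 library left out.

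The other 5 lists held no called gene, and their counts at limma's unadjusted p under 0.05 are given beside each. Of 9 other thioesterases tested 0 were called (2 unadjusted), with a median change of −0.19. Them5, a mitochondrial thioesterase, differed by 1.41 (limma adjusted p = 0.0689), Acot13 by −0.65 (limma adjusted p = 0.443). Of 14 lysophospholipid and glycerol acyltransferases 0 were called by limma (4 unadjusted), with a median of 0.18. Agpat2, which makes phosphatidic acid for fat storage, differed by −2.36 (limma adjusted p = 0.0532), Agpat5 by 1.20 (limma adjusted p = 0.180).

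Oxidation and PPAR genes gave no call either. Of 17 peroxisomal genes 0 were called by limma (5 unadjusted), with a median of 0.21. Abcd3, a peroxisomal transporter of acyl-CoAs, differed by 1.01 (limma adjusted p = 0.154), and Crat, carnitine acetyltransferase, by 0.90 (limma adjusted p = 0.170). Of 21 mitochondrial genes 0 were called by limma (2 unadjusted), with a median of −0.04. Etfb, an electron carrier subunit, differed by −1.30 (limma adjusted p = 0.159), Acad9 by 1.08 (limma adjusted p = 0.330). Of 18 PPAR receptors and responsive genes 0 were called by limma (2 unadjusted), with a median of −0.92. Cidec (−1.60, limma adjusted p = 0.0884) and Fabp4 (−2.26, limma adjusted p = 0.0927), both genes of fat cells, had the lowest p in that list.

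The genes most like each called member over the 10 libraries were found by Pearson's r, as a description without a test. Members, predicted genes (Gm and Rik symbols) and repeats of a symbol were left out of this ranking. For Hacl1 they were Rmdn3 (r = 0.993), Cyp1a1 (0.967) and Ermp1 (0.959). For Dbi they were Tomm7 (0.983), Pnpla3 (0.962) and Ehd2 (0.935), and for Lpgat1 they were Mrpl49 (0.943), Rai2 (0.941) and Ppp2r1b (0.937). Stk24 was the nearest to both Acbd6 (0.964) and Acot5 (0.928). Next came Mvd (0.953) and Cers4 (0.949) for Acbd6, and Tmem254c (0.927) and Tmem254b (0.926) for Acot5. Because the genotype difference alone raises such values, r was also taken over deviations from the group means. It was 0.97 for Hacl1 with Rmdn3, 0.91 for Dbi with Tomm7 and 0.91 for Lpgat1 with Mrpl49, but 0.64 for Acot5 with Stk24.

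Among the members, pairs that shared a direction between the groups mostly had a lower r over deviations. Acot5 and Acbd6 had an r of 0.89 over the 10 libraries and 0.42 over deviations, Acot5 and Hacl1 0.82 and 0.11, and Dbi and Lpgat1 0.87 and 0.41. Acot1 and Acbd6, both higher in STAT3cKO, had an r of −0.81 over deviations. Acot2 and Hacl1 went together within the groups (0.80 over deviations, 0.09 over the 10 libraries).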

How the data were processed

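Transcript 3′ ends of whole mouse skin were sequenced, per the labels' protocols, with the Lexogen QuantSeq kit from Trizol-extracted total RNA. Bowtie2, bedtools and the build mm10 are named in the submitters' processing notes. The sources used here do not give versions, annotation, strand, scaling or duplicate handling. Each library's deposited table lists gene symbols with log2 values, which from their spacing and sums are log2 of scaled reads plus a pseudocount of 1. On the linear scale a library summed to between 9690000 and 11400000. The spacing of low values gave the worth of 1 read and from it depths of 7150000 to 18400000 reads, and values worth under 0.5 of a read count as no read. These depths cover counting error only.

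Of 23282 entries, 5996 were at 0 in every library, and 11536 reached a value of 5 in at least 5 libraries and were tested. A linear model with group as the only term was fitted with limma 3.58.1 in R 4.3.3 (empirical Bayes, mean trend, robust), with Benjamini-Hochberg adjustment over all tested genes and calls at an adjusted p under 0.05. The steps were tested on simulated data. The 10 genes and the lists were chosen with earlier results of these data known. Genes outside the 10 were named by a rule: from each pathway list up to 4 called genes or, with none, the 2 of lowest p, and the 3 genes most correlated with each called member. Stat3, Xist, Ddx3y, Btd, Acot6 and the called marker genes were added after their values were seen. The labels give both groups the replicate numbers 1 to 5, and the deviations of same-numbered libraries from their group means had a Pearson's r of −0.15 to 0.02, so no pairing was used. Positions and transcripts come from GENCODE mouse release M21, promoters from RefSeq on GRCm38.p6, the same assembly as mm10. Python 3.11.15 and matplotlib 3.10.9 drew the figures. Alternatives are given in the closing section.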

Additional observations from a re-analysis of the deposited data

Results flagged for a closer look

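In 5 of 46 groups of 5 libraries looked at, the gap between 1 library and the nearest other took up more than 0.71 of the group's range. For independent, normally distributed values such a gap arises in about 1 in 20 groups. The groups here share the same libraries and some hold values at the floor, so their count cannot be set against that rate. WT 4 was low in Acot2 (8.54, others 10.11 to 10.40) and in Fa2h (8.15, others 10.68 to 11.20). WT 1 was high in Acot5 (6.84, others 0 to 1.15), and WT 3 was high in Acot3 (1.79, others 0 to 0.02), a value of 2 reads. STAT3cKO 2 was low in Acot4 (0.06, others 4.43 to 5.89), in a library where 30.1% of moderately expressed genes had no read.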

How the results depend on the processing

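Acot3, Acot4 and the WT level of Acot5 rest on few or no reads in some or all libraries. For Acot5, WT 2 had 0 reads at an estimated depth of 14500000, and STAT3cKO 1 had 199 at 7890000. The part of depth in these levels was not tested. Over all genes 61 were higher and 53 lower. Quantile normalization gave 95 and 81, limma without trend and robust 13 and 31, and the 6 shallower libraries alone 12 and 4, from fewer samples. The counts of lower genes were 85 with a pseudocount of 16 and 92 in the 4 deeper libraries. Leaving out 1 library gave 29 (without STAT3cKO 1) to 96 (without WT 4) higher and 24 (without WT 2) to 111 (without WT 4) lower. With the replicate number as a block the counts were 34 and 32, although same-numbered libraries did not deviate together, and of the called members Acot5 (limma adjusted p = 0.0973), Acbd6 (0.0715) and Hacl1 (0.0537) lost their call.

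Of the 108 pathway genes 3 were higher and 0 lower. The count higher was 5 in the deeper and 1 in the shallower libraries. The count lower was 1 with the lower filter, the pseudocount of 16 or the replicate block, 2 with quantile normalization or without STAT3cKO 2 and WT 3, 5 in the deeper libraries, and 0 to 3 with 1 library left out. The members kept their direction in each alternative run except Acbd3, whose change was −0.27 to 0.14 with 1 library left out and 0.32 in the shallower libraries. In limma without trend and robust, and in the shallower libraries, none of the 5 called members passed. The causes were not tested.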

Other observations

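The correlation of Hacl1 with the adipocyte markers differed in sign within the groups and over all libraries. Over deviations from the group means its r with the adipocyte list mean was 0.79 and with the hair list mean −0.73, while over the 10 libraries its r with the adipocyte list mean was −0.53. In WT the lowest Hacl1 was in WT 4 (6.11), the WT library with the most hair shaft transcripts (18.46) and the lowest adipocyte sum (17.08). Cyp1a1, the gene second in likeness to Hacl1, rose by 3.79 (limma adjusted p = 0.0248).

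WT 4 was the WT library nearest to STAT3cKO in the balance of Acot1 and Acot2 (1.54 in favour of Acot1, against 0.19 to 1.79 in STAT3cKO). It had the lowest Acbd3 (8.89) and Hacl1 of the WT libraries, and Acot5 at about 1 read.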
